A study of Mus musculus with 2 samples.

Results

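The Mir183, Mir96 and Mir182 genes form a short microRNA cluster, and their levels were measured in midbrain from mouse embryos at embryonic day 12.5. All 3 members were found among the 1973 microRNA genes listed in the files, by Ensembl identifier and GENCODE symbol, and all 3 were among the 380 genes called quantified here, those that reached 10 counts in each library. The study holds 2 small RNA libraries of this tissue, labelled as biological replicates 2 and 1. Both come from strain B6NCrl with the sexes mixed, and the labels give no treatment and no engineered allele. Replicate 2 pooled 88 embryos and replicate 1 pooled 120, so the values average over many animals and show nothing of the variation between embryos. The assay was microRNA sequencing of RNA below 30 nucleotides. The design holds 1 group, so the comparisons are between the members and between the replicates.

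In animals a microRNA cluster of this kind is transcribed as a long primary transcript, from which Drosha cuts each hairpin and Dicer then frees the mature strands. The mature strand guides an Argonaute protein to messenger RNAs mainly through its seed, bases 2 to 8 from the 5′ end. The Mir183 cluster is known from sensory cells, among them hair cells of the inner ear, photoreceptors, olfactory neurons and sensory neurons of the dorsal root ganglia. Changes in the seed of miR-96 cause hearing loss in mice and in people.

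The annotated 5′ mature strands of the 3 members share much of their sequence, and they are printed here because the seed is what decides how far the members can act on the same messages. Bases 2 to 8 are in capitals, and the last line is a microRNA from another locus with the same seed as miR-96. The sequences are RefSeq's, on GRCm38.p6.
miR-183-5p: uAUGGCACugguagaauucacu
miR-96-5p: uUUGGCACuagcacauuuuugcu
miR-182-5p: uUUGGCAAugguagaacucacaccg
miR-1271-5p: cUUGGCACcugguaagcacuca

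Counted from 1 at the 5′ end, the seed of miR-96-5p differed from that of miR-183-5p by A2U and the seed of miR-182-5p differed from that of miR-96-5p by C8A. The seeds of miR-183-5p and miR-182-5p differed by both A2U and C8A. Over all positions compared from the 5′ end, without gaps, the order of likeness was another. MiR-182-5p had the same base as miR-183-5p at 18 of 22 positions (81.8%), miR-96-5p had the same base as miR-183-5p at 13 of 22 (59.1%), and miR-182-5p and miR-96-5p shared 12 of 23 (52.2%). The cluster thus held 2 strands with the same bases 2 to 7 but little likeness beyond the seed, miR-96-5p and miR-182-5p. It also held 2 strands that were alike along the compared positions but differed at 2 positions of the seed, miR-183-5p and miR-182-5p. The messenger RNA letters that pair with bases 2 to 8 are GUGCCAU for miR-183-5p, GUGCCAA for miR-96-5p and UUGCCAA for miR-182-5p. No target was measured in this study.

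The hairpins follow, 5′ to 3′ on the transcribed strand, with both annotated mature strands in capitals, the 5′ strand first. They are shown because the counts are given per hairpin gene and sum the reads of both strands.
Mir183: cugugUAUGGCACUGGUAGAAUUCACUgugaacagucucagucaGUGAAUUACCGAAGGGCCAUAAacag
Mir96: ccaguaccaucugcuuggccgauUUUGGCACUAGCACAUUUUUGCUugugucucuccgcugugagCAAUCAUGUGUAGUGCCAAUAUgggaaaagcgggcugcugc
Mir182: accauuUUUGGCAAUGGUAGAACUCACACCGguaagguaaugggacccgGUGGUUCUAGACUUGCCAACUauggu

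The mature strands run from 21 bases (miR-182-3p) to 25 bases (miR-182-5p), within the size range of the libraries. A read spans a mature strand whatever the length of its hairpin, so levels were not divided by hairpin length. None of the 3 hairpins shared 20 consecutive bases with another annotated mouse microRNA hairpin, on either strand. None of the 6 mature sequences occurred whole in a transcript of any other gene among the 141767 GENCODE transcripts searched. Genomic places outside annotated transcripts were not searched. Among 1738 mature mouse sequences in the RefSeq table, the seeds of miR-183-5p and miR-182-5p occurred at no other locus and that of miR-96-5p occurred at 1, miR-1271-5p. Bases 2 to 7 of miR-182-5p occurred in 2 others, miR-96-5p and miR-1271-5p.

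On mm10 the cluster lies on the minus strand of chromosome 6. Mir183 (ENSMUSG00000065619.2) comes first in the direction of transcription, at chr6:30169668-30169737. Mir96 (ENSMUSG00000065586.1) follows after 116 bases, at chr6:30169446-30169551, and Mir182 (ENSMUSG00000076361.1) lies 3453 bases further on, at chr6:30165918-30165992. GENCODE release M21 places no other gene on either strand within the 3820 bases from Mir183 to Mir182, so all 3 hairpins are intergenic there and their primary transcript is not annotated. The nearest gene upstream of Mir183 is Rncr4, a long non-coding RNA known from retina, which starts 3155 bases away on the opposite strand. The nearest protein-coding genes are Ube2h, 41551 bases beyond Mir183, and Nrf1, 12459 bases beyond Mir182.

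Replicate 2 held 2805487 counts assigned to a microRNA gene on its own strand, and replicate 1 held 4629302. Levels are counts per 1000000 of these assigned counts (CPM), and a count of 3, taken as the limit that a count of 0 allows, is 1.07 CPM in replicate 2 and 0.648 CPM in replicate 1. Brain microRNAs fixed as markers were present, led by Mir137 at 3894 ± 467 CPM and Mir153 at 3399 ± 159 CPM (SD, n = 2). Of the 10 brain genes on that list, 9 could be matched to a listed gene, and none of these is at 0 in both libraries. The Mir124a genes, whose copies give the same mature strand, had 3.56 to 14.6 CPM on average. Mir1a-1, Mir133a-1 and Mir133a-2, which mark muscle and also have such copies, were at 0 in both libraries. Reads that align to several places are assigned to no gene, so a low count or a 0 of such copies does not show absence. Mir206 of the same muscle list was not, with 22.8 CPM in replicate 2 and 22.2 CPM in replicate 1. In bulk tissue, fewer cells of a type and less RNA per cell cannot be told apart.

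All 3 members were well above the limit of detection, in the order Mir182, Mir183, Mir96 in both libraries. Mir183 stood at 1867 CPM (5238 counts) in replicate 2 and at 1149 CPM (5321 counts) in replicate 1. The 95% Wilson intervals were 1817 to 1918 CPM in replicate 2 and 1119 to 1181 CPM in replicate 1 and did not overlap. Mir183 averaged 1508 ± 507 CPM (SD, n = 2), which put it at rank 79 of the 380 quantified genes.

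Mir96, the member whose seed is changed in inherited deafness, was the lowest. It stood at 631 CPM (1770 counts) in replicate 2 and at 463 CPM (2145 counts) in replicate 1, with intervals of 602 to 661 CPM in replicate 2 and 444 to 483 CPM in replicate 1. It averaged 547 ± 118 CPM (SD, n = 2), at rank 129.

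Mir182, the last hairpin of the transcript, was the highest and the most even between the libraries. Its level was 2206 CPM (6188 counts) in replicate 2 and 2285 CPM (10579 counts) in replicate 1. Its intervals, 2151 to 2261 CPM in replicate 2 and 2242 to 2329 CPM in replicate 1, overlapped. It averaged 2245 ± 56.2 CPM (SD, n = 2), at rank 69. The most abundant microRNA gene of the tissue, Mir99a, stood 63.7-fold above Mir182, 94.8-fold above Mir183 and 261-fold above Mir96 in mean CPM.

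**Figure D1:**
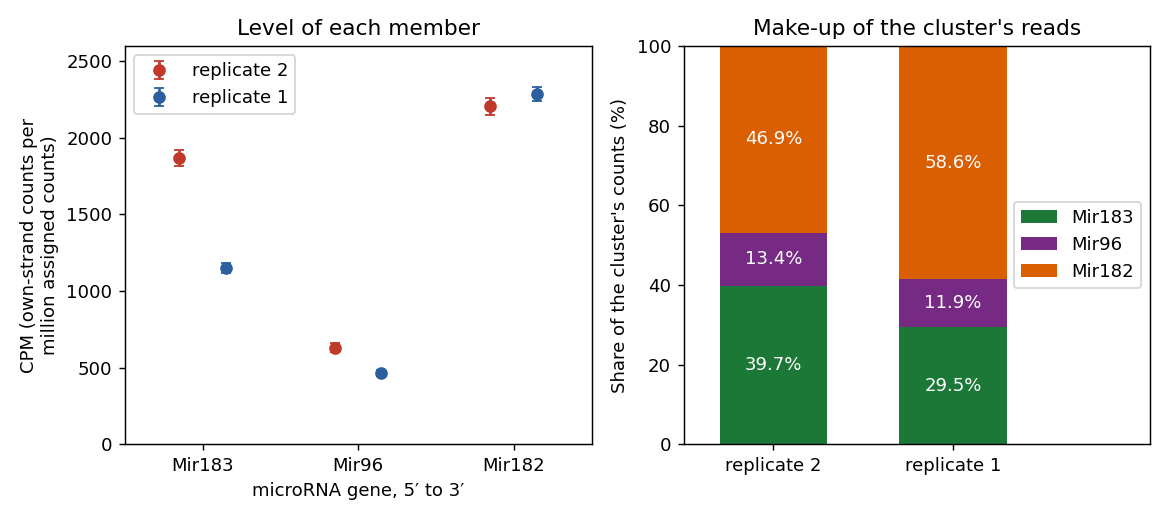
Left, level of each member in CPM with its 95% Wilson interval (counting error only), replicate 2 in red and replicate 1 in blue. Right, share of the cluster's counts held by each member in each library, in percent. Mir183 stands at 1867 CPM in replicate 2 and 1149 CPM in replicate 1, while Mir182 stands at 2206 CPM in replicate 2 and 2285 CPM in replicate 1, so that Mir183 holds 39.7% of the cluster's counts in replicate 2 and 29.5% in replicate 1.

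The 3 genes together had 13196 counts in replicate 2 and 18045 in replicate 1. The sum was 4704 CPM in replicate 2 and 3898 CPM in replicate 1, that is 0.470% and 0.390% of assigned counts in the same order, with a mean of 4301 ± 570 CPM (SD, n = 2). Mir183 gave 39.7% of the cluster's counts in replicate 2 (38.9 to 40.5%, 95% Wilson interval) and 29.5% in replicate 1 (28.8 to 30.2%). Mir96 gave 13.4% in replicate 2 (12.8 to 14.01%) and 11.9% in replicate 1 (11.4 to 12.4%). Mir182 gave 46.9% in replicate 2 (46.0 to 47.7%) and 58.6% in replicate 1 (57.9 to 59.3%). The make-up of the cluster's reads thus differed between the libraries by more than counting error, while the order of the members was the same.

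Ratios between members within a library do not depend on how libraries are scaled. Mir182 had 1.18 times the counts of Mir183 in replicate 2 (95% counting interval 1.14 to 1.23) and 1.99 times in replicate 1 (1.92 to 2.05). Mir182 had 3.50 times the counts of Mir96 in replicate 2 (3.32 to 3.69) and 4.93 times in replicate 1 (4.71 to 5.17). Mir96 had 0.338 times the counts of Mir183 in replicate 2 (0.320 to 0.357) and 0.403 times in replicate 1 (0.383 to 0.424). Of the 3 pairs, the adjacent hairpins Mir96 and Mir183 differed least between the libraries, with a log2 difference of -0.25 (95% counting interval -0.36 to -0.15), and Mir182 over Mir183 differed most, at -0.75 (-0.82 to -0.68). Mir182 over Mir96 differed by -0.50 (-0.60 to -0.39). Over the replicates, the mean log2 ratio was 0.62 ± 0.53 for Mir182 over Mir183, -1.44 ± 0.18 for Mir96 over Mir183 and 2.05 ± 0.35 for Mir182 over Mir96 (SD, n = 2). The distance of Mir182 from Mir183 was thus of the size of its spread between the replicates, while that of Mir96 from both others was larger than its spread.

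The replicates were compared over all 380 quantified genes by Fisher's exact test (two-sided), which sets the share of a gene in one library against its share in the other, and p-values were adjusted over these genes by the Benjamini-Hochberg method. The test asks whether 2 libraries differ beyond counting noise and compares no conditions. By that test 54.2% of the quantified genes differed between the libraries, 27.1% higher in replicate 2 and 27.1% lower, so a call by itself sets no gene apart. All 3 members were called, Mir183 and Mir96 higher in replicate 2 and Mir182 lower.

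Mir183 was 1.62-fold higher in replicate 2, with a log2 ratio of 0.70 ± 0.03 (counting SE) and an adjusted p of 1.38e-134 by the exact test. The size of the ratio placed it at rank 40 of 380 in either direction and at rank 22 among ratios in favour of replicate 2. Mir96 was 1.36-fold higher in replicate 2, with a log2 ratio of 0.45 ± 0.05 (counting SE, adjusted p = 6.03e-21, exact test), at rank 93 in size. Mir182 had a log2 ratio of -0.051 ± 0.023 (counting SE, adjusted p = 0.0491, exact test), which is 1.04-fold higher in replicate 1 and ranked 334 in size. The call of Mir182 was lost when genes below the count minimum were tested too (adjusted p = 0.0894, 746 genes, exact test). The median log2 ratio of the 3 members was 0.45, against 0.035 over all quantified genes, whose ratios had an SD of 0.46 and a median size of 0.24. Mir183 therefore lay outside 1 SD of all genes' ratios, and Mir96 and Mir182 lay within it.

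**Figure D2:**
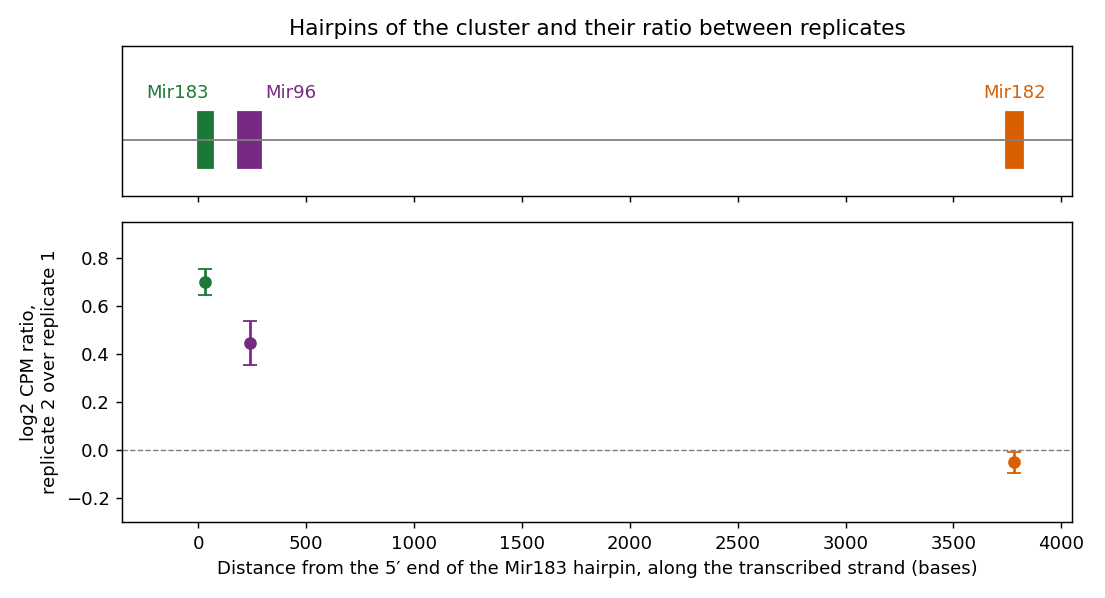
Top, the 3 hairpins drawn to scale along the transcribed strand, by distance in bases from the 5′ end of the Mir183 hairpin. Bottom, the log2 CPM ratio of replicate 2 over replicate 1 for each hairpin with its 95% counting interval. The ratios are 0.70 for Mir183, 0.45 for Mir96 after a gap of 116 bases and -0.051 for Mir182 after a further 3453 bases.

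**Figure D3:**
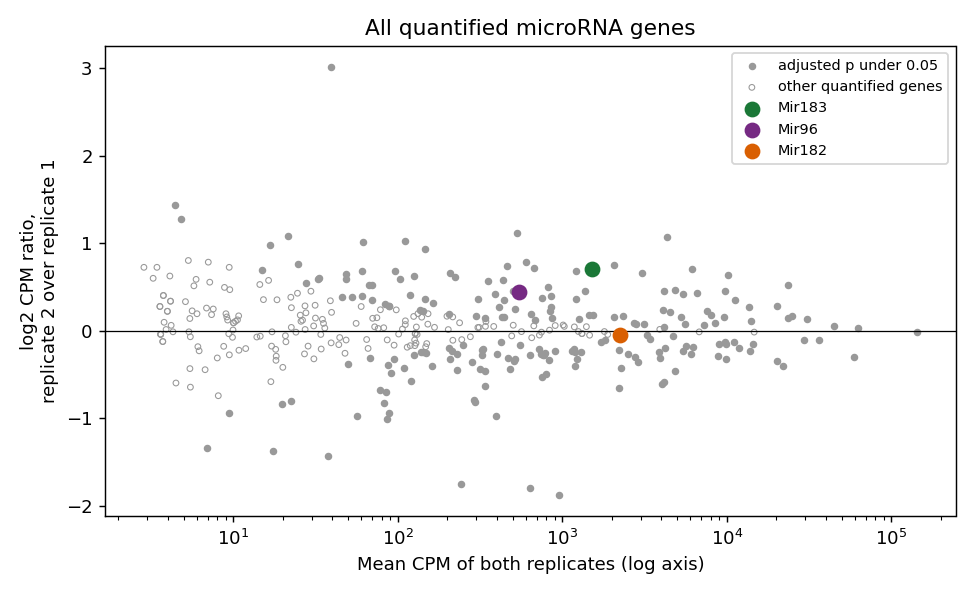
Log2 CPM ratio of replicate 2 over replicate 1 against mean CPM (log axis) for the 380 quantified genes, with filled points for genes called by the exact test and open points for the others. Mir183 and Mir96 lie above 0 among other called genes of like level, and Mir182 lies next to the line at 0.

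The genes next to each member were chosen for their closeness in mean CPM, which by itself makes an overlap of ranges likely. For Mir183 the 3 genes above were Mir467d, Mir467c and Mir203, at 1803, 1716 and 1544 CPM, and the 3 below were Mir532, Mir674 and Mir323, at 1466, 1444 and 1401 CPM. All 6 had values between the replicates that overlapped the range of Mir183. For Mir96 the neighbours above were Mir375, Mir669o and Mir494, from 599.6 to 550.1 CPM, and those below were Mir483, Mir195a and Mir665, from 532 to 513 CPM, all 6 overlapping its range. For Mir182 the neighbours above were Mir363, Mir125b-1 and Mir425, from 2508 to 2273 CPM, and those below were Mir381, Mir20b and Mir15b, from 2220.1 to 2067 CPM. Of these 6, 5 overlapped the range of Mir182, and Mir15b, with 2175 CPM in replicate 2 and 1958 CPM in replicate 1, did not. Mir363 overlapped that range but was above Mir182 within each library, at 2278 CPM in replicate 2 and 2737 CPM in replicate 1.

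The genes most like each member over both libraries were found by distance in log2 CPM, a likeness over 2 points that says little more than level. For Mir183 they were Mir98 of the let-7 family (distance 0.23), Mir674 (0.37) and Mir203 (0.38). For Mir96 they were Mir1306 (0.18), Mir195a (0.18) and Mir375 (0.27), and for Mir182 they were Mir381 (0.12), Mir125b-1 (0.17) and Mir15b (0.22). Mir98 had 1587 CPM in replicate 2 and 1156 CPM in replicate 1, and Mir1306 had 581 CPM in replicate 2 and 423 CPM in replicate 1, both higher in replicate 2 as Mir183 and Mir96 were. No member of the cluster was among the 3 genes most like another member.

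The cluster was then set beside the other runs of neighbouring microRNA genes, each with at least 3 quantified genes on 1 strand whose starts lie within 10 kb of the next. There were 15 such runs, and a run need not be a single transcript. From highest to lowest member, mean CPM differed 4.10-fold in the Mir183 cluster, against a median of 82.6-fold over the 15 runs. A run of more genes has more room for a large fold, and over the 6 runs of 3 genes the median was 18.1-fold. The run of Mir292 to Mir294, genes of the pluripotent embryo, had a smaller fold at 2.84, with mean levels from 10.03 to 28.5 CPM. The next was the Mir302 cluster at 9.17-fold. Among the 8 runs in which every gene reached 100 counts in each library, the Mir183 cluster had the smallest fold. The count minimum leaves out the lowest genes of other runs, and copies with shared sequence are undercounted in some of them, so their folds are descriptions of these counts.

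In the ratio between the replicates the members were less alike. The log2 ratios of the cluster spanned 0.75, from -0.051 to 0.70. The median span was 0.63 over the 15 runs and 0.52 over the 6 runs of 3 genes. Of the other 14 runs, 11 had a smaller span and 3 a larger one. The span was 0.12 in the Mir106b to Mir25 run, which also has 3 genes, and 0.14 in the Mir200b to Mir429 run. The widest, 1.22, was that of the 31 genes from Mir379 to Mir3072. No test of this order was made.

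**Figure D4:**
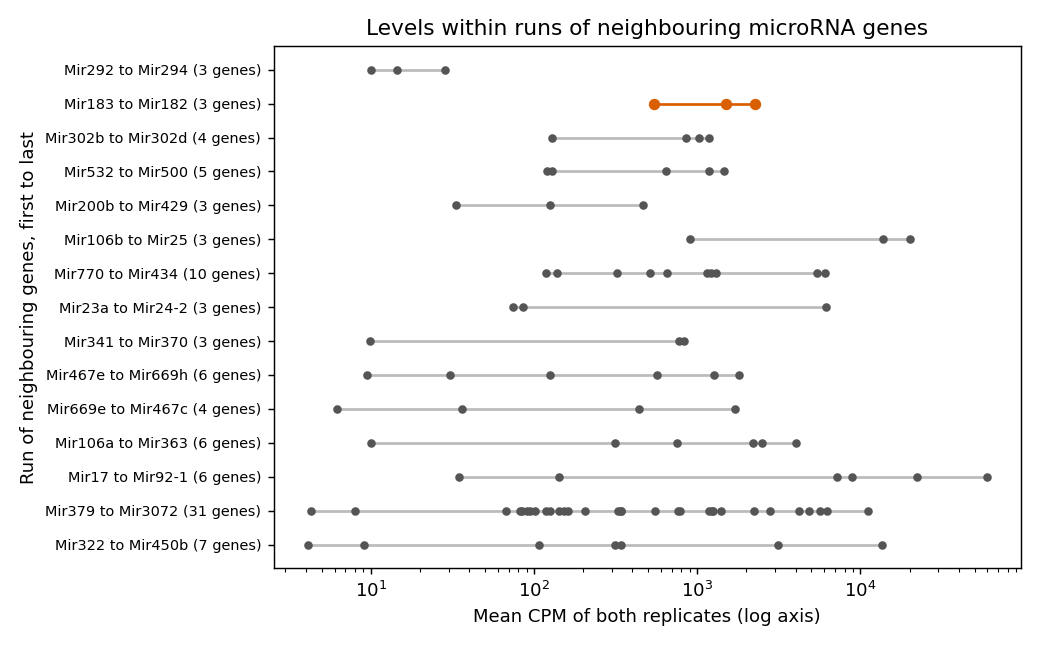
Mean CPM of both replicates (log axis) of every quantified gene in the 15 runs of neighbouring microRNA genes, ordered from the smallest to the largest fold between highest and lowest gene. The Mir183 cluster, in orange, spans 547 to 2245 CPM, while most other runs spread over more than a factor of 10.

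Other loci with a seed of the cluster had lower levels than Mir96 or no counts. Mir1271, listed as Gm24195 on chromosome 13, has a mature strand with bases 2 to 8 of miR-96-5p and had 0 counts in both libraries, which allows up to 1.07 CPM in replicate 2 and 0.648 CPM in replicate 1. Mir96 and Mir182, which share bases 2 to 7, were therefore the genes with these bases, among those in the RefSeq table, that had counts. Mir3475, on the X chromosome, has a mature strand with bases 2 to 8 of the 3′ strand of Mir96. Both are shown with these bases in capitals.
miR-96-3p: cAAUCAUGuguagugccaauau
miR-3475-5p: aAAUCAUGuacccccacagagg

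Mir3475 had 68.8 CPM in replicate 2 and 52.5 CPM in replicate 1, a log2 ratio of 0.39 ± 0.14 (counting SE, adjusted p = 0.0118, exact test). How many of the Mir96 reads came from its 3′ strand is not given by counts per hairpin.

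Other microRNAs of sensory organs and of epithelia were read beside the cluster. On the list of retinal, pineal and neuroendocrine microRNAs, 9 of 12 genes were quantified, with a median log2 ratio of -0.064. Of these, 1 was called higher in replicate 2, 4 were called lower and 4 were not called. The share called over all quantified genes was 54.2%, with 27.1% higher in replicate 2 and 27.1% lower. The Mir124a and Mir9 genes of this list are also the brain list's, and Mir204 is on the choroid plexus list too. The median is the ratio of Mir124a-2, so these figures are no separate reading of sensory organs. Mir375, a microRNA of endocrine cells, had 758 CPM in replicate 2 and 441 CPM in replicate 1 (log2 ratio 0.78 ± 0.04, counting SE). Mir375 stood 3 ranks above Mir96 in mean level. Mir204, of retinal pigment epithelium and choroid plexus, had 286 CPM in replicate 2 and 995 CPM in replicate 1. Mir211 had 10.7 CPM in replicate 2 and 9.94 CPM in replicate 1. Mir7b had 267 CPM in replicate 2 and 527 CPM in replicate 1. The other Mir7 genes of the list differed less. Mir7-1 had 417 CPM in replicate 2 and 520 CPM in replicate 1, and Mir7-2 had 227 and 204 CPM in the same order.

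All 7 genes of the epithelial list were quantified, and 6 were called higher in replicate 2, none lower, with a median log2 ratio of 0.60. Over all quantified genes, 27.1% were called higher in replicate 2. Mir429, of the Mir200 family that is also known from olfactory epithelium, had 579 CPM in replicate 2 and 347 CPM in replicate 1 (log2 ratio 0.74 ± 0.05, counting SE). Mir200c had 255 CPM in replicate 2 and 161 CPM in replicate 1. Mir141, at 34.2 CPM in replicate 2 and 25.1 CPM in replicate 1, was not called. The summed CPM of the list was 3549 in replicate 2 and 2764 in replicate 1, below the 4704 and 3898 CPM of the Mir183 cluster in the same libraries. The Mir183 and Mir96 ratios, 0.70 and 0.45, lay within the range of this list, which ran from 0.18 for Mir203 to 0.74, and that of Mir182 lay below it. On the list of ciliated cells, 3 of 5 genes were quantified, with a median log2 ratio of -0.052. Mir449a was called lower in replicate 2, at 406 CPM against 1492 CPM in replicate 1. Mir34b (log2 ratio 0.11 ± 0.21, counting SE) and Mir34c (-0.052 ± 0.041) were not called.

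Markers of tissue next to the midbrain also moved between the libraries, and their part in the Mir183 and Mir96 ratios was not tested. For comparison with the counts below, 27.1% of all quantified genes were called higher in replicate 2 and 27.1% lower. The Hox cluster list, known from more caudal tissue, summed to 419 CPM in replicate 2 and 225 CPM in replicate 1, with 4 of 4 quantified genes called higher in replicate 2, 1 of 6 at 0 in both libraries and a median log2 ratio of 0.81. The mesenchymal list summed to 23591 CPM in replicate 2 and 15707 CPM in replicate 1, with 6 of 7 quantified genes called higher in replicate 2, Mir145a not called (log2 ratio 0.15 ± 0.09, counting SE) and a median of 0.46. The choroid plexus list went the other way, with 426 CPM in replicate 2 and 1446 CPM in replicate 1, all 4 genes called lower in replicate 2 and a median of -1.60. The brain list summed to 7507 CPM in replicate 2 and 8333 CPM in replicate 1, with a median log2 ratio of -0.064. Of its 7 quantified genes, 2 were called higher in replicate 2 (Mir128-1 and Mir128-2), 3 were called lower and 2 were not called. Endothelial Mir126a had 26243 CPM in replicate 2 and 23434 CPM in replicate 1, and the leukocyte list 686 CPM in replicate 2 and 566 CPM in replicate 1. Of the 3 quantified leukocyte genes, Mir223 and Mir150 were called higher in replicate 2 and Mir155 was called lower. The erythroid list had 271 CPM in replicate 2 and 413 CPM in replicate 1, but its median log2 ratio was 0.20. Of its 3 genes, Mir486 was called higher in replicate 2, Mir451a was called lower and Mir144 was not called. Liver Mir122 had 69.5 CPM in replicate 2 and 8.64 CPM in replicate 1. The muscle list had 22.8 CPM in replicate 2 and 22.2 CPM in replicate 1, all of it from Mir206.

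**Figure D5:**
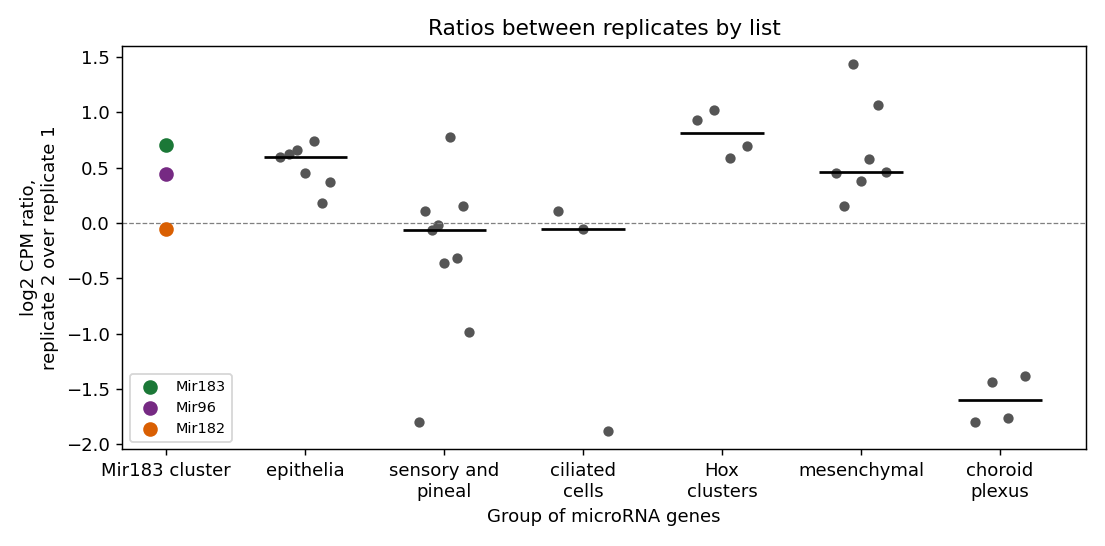
Log2 CPM ratio of replicate 2 over replicate 1 for the 3 members, in colour, and for the quantified genes of 6 lists, in grey with the median of each list as a line. Mir183 and Mir96 lie above 0, within the range of the epithelial and mesenchymal genes, Mir96 lies below all 4 Hox cluster genes, and Mir182 lies at -0.051.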

How the data were processed

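MicroRNA was sequenced from 2 pools of midbrain. The authors deposited raw counts per microRNA gene, from alignments to mm10 with annotation release M4, per the deposited read-me files. Neither aligner nor counter is given in the sources used here. Of 3 count columns (either, own and opposite strand), the own-strand one was used, which held 97.5% of either-strand counts in replicate 2 and 97.6% in replicate 1. Rows that name no gene, with 58.2% of reads in replicate 2 and 56.9% in replicate 1, stayed out of totals and tests. They include reads that aligned to several places (33.4% in both), so genes with copies are undercounted. Symbols came from GENCODE M21 (1894 of 1973 identifiers matched) and sequences of all 3 members from RefSeq GRCm38.p6. Library preparation can favour some sequences over others, so levels of different microRNAs compare reads, not molecules. Wilson and counting intervals cover counting error only, and with 2 pools a p measures these libraries alone.

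CPM, exact tests, ratios and intervals were computed with Python 3.11.15 and SciPy 1.17.1. The tests were tested on data simulated with counting noise only, which does not show how they behave with variation between pools. Alternative scalings used TMM factors from edgeR 4.0.16 and size factors from DESeq2 1.42.0. Genes named are the members, genes sharing a seed, 3 neighbours in level on each side, the 3 genes most like each member, the fixed lists and the most abundant gene. Other runs named for their folds or spans were chosen after their values were seen. The members and lists were chosen with earlier results of these data known, and list counts are descriptions. Mir9-1, Mir142 and Mir1a-2 were not analysed here.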

Additional observations from a re-analysis of the deposited data

Results flagged for a closer look

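Reads on the strand opposite to the members were above the limit that a count of 0 allows in some libraries and stayed out of the own-strand counts. Opposite to Mir182 there were 6 reads in replicate 2 and 15 in replicate 1, or 0.0969% and 0.142% of its reads on either strand in the same order. Opposite to Mir183 there were 2 reads in replicate 2 and 6 in replicate 1, and opposite to Mir96 there were 0 in both. Over all genes, 2.47% of either-strand counts in replicate 2 and 2.40% in replicate 1 lay on the opposite strand.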

How the results depend on the processing

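TMM factors, DESeq2 size factors, a minimum of 100 counts, reads of either strand and a total without Mir99a left the direction and the call of all 3 members' ratios as reported. The Mir182 ratio is the call nearest the threshold: with no count minimum its log2 ratio of -0.051 had an adjusted p of 0.0894 by Fisher's exact test, since 746 genes were then tested, and over the other alternatives its adjusted p ran from 0.000436 to 0.0405. Without Mir99a in the total, all levels were higher, because the total is smaller. Mir183 was then at 1760 CPM, Mir96 at 638 CPM, Mir182 at 2620 CPM and the sum at 5018 CPM. From 196 to 214 genes were called under the alternatives, against 206 as reported. Levels from 1 library alone are those given per replicate, and Mir182 over Mir183 on the log2 scale was then 0.24 without replicate 1 and 0.99 without replicate 2. No paired analysis was possible because the 2 libraries form 1 group. With 2 libraries, the ratios between replicates have no further replicate check.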
